A study of Mus musculus with 6 samples.

Results

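The genes of the tyrosine phosphatase SHP2 and of the MAP kinase cascades around it were examined in hepatic tissue of mice with and without arylsulfatase B. The group held 30 genes, namely SHP2 and its adaptors (7 genes), the p38 cascade (15), the JNK cascade (4) and the ERK cascade (4). A gene counted as measured where the array annotation gave a probe set exactly 1 symbol, and where a gene had several, the brightest on average was taken. By this rule 26 of the 30 genes were measured, among 19938 genes on the array, and each of the 26 had 1 such probe set. Frs2, Rps6ka4, Map2k7 and Mapk3 were not analysed here. The arrays compared hepatic tissue of 3 homozygous ARSB-null and 3 control male mice, with 1 array per liver. All 6 mice were 12 weeks old and of the C57BL/6J background, and none had been treated. The ARSB-null mice lack arylsulfatase B, an enzyme of the lysosome that desulfates chondroitin 4-sulfate and dermatan sulfate, and the defect is not limited to the liver. The sources used here do not say that the controls were littermates, so genotype and colony cannot be told apart. The question for these genes was whether their mRNA differed with genotype.

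SHP2, encoded by Ptpn11, is a cytoplasmic phosphatase that is drawn to phosphorylated receptors and docking proteins, where its activity is needed for full activation of Ras and ERK by growth factors. A MAP kinase cascade has 3 tiers, in which a MAP3K phosphorylates a MAP2K and the MAP2K phosphorylates the MAP kinase, and phosphatases of the DUSP family switch the MAP kinase off again. These cascades are regulated mainly through phosphorylation of proteins already present, which an array of mRNA does not read.

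The labels were checked first. Arsb measured 7.63, 7.46 and 7.64 on the ARSB-null arrays numbered 4, 5 and 6, and 10.21, 10.23 and 10.21 on the control arrays of the same numbers. These are log2 signals, the scale used throughout, and the mean was 6.23-fold lower in the ARSB-null livers (limma, adjusted p = 0.000639). Gpnmb, a lysosomal membrane glycoprotein that the study followed, was 9.53-fold higher in the ARSB-null livers (adjusted p = 0.000639). The 9 hepatocyte markers measured were all at 12.31 or above on every array, and none of them was past an unadjusted p of 0.05. The arrays had medians between 6.50 and 6.60. Both arrays numbered 4 lay apart from the other 4 on the first principal component, which held 39.7% of the variance. The counts, and the values of several genes, are therefore also given below without these 2 arrays. The second component held 27.1% and separated the genotypes, with -17, -8.21 and -14.8 on the ARSB-null and 14.4, 15.2 and 10.5 on the control arrays. In whole tissue, fewer cells of a type and less RNA per cell cannot be told apart.

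None of the 26 genes differed between the genotypes past an adjusted p of 0.05 (limma with Benjamini-Hochberg adjustment over all 35556 probe sets). The percentage called among all probe sets was 0.0197, which is 7 of them. None of the 26 was past an unadjusted p of 0.05 either, beside 5.94% of all probe sets. Adjusted p ranged from 0.875 to 1 over the 26 genes. A one-way analysis of variance, the test named in the study's methods, placed 0 of them past the adjusted threshold and 2, Mapk12 and Map3k7, past the unadjusted one (7.69%, beside 6.56% of all probe sets in that test). The mean was higher in the ARSB-null livers for 10 genes and lower for 16. The median log2 difference was -0.054, compared with -0.016 over all genes with 1 symbol. The median absolute difference was 0.089 for the 26 genes and 0.092 for all genes, and the median SE was 0.112 and 0.128.

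Log2 differences lay between -0.20 and 0.22, and 18 of the 26 were within 0.1 of 0 at their estimates. In the limma fit each 95% interval contained 0, and all 26 intervals lay within a 1.5-fold change in either direction. By the analysis of variance the outermost bounds were -0.61 and 0.59, just past 1.5-fold, and the intervals of 2 genes excluded 0. In limma the outermost bounds were -0.54 for Rps6ka5 and 0.54 for Mapkapk2, each equal to 1.45-fold. These intervals were not widened for the number of genes. At its own SE, a gene of this group would have needed a log2 difference between 1.04 and 1.82 to be called. The smallest difference among the 7 called probe sets was 1.47, or 2.78-fold.

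**Figure D1:**
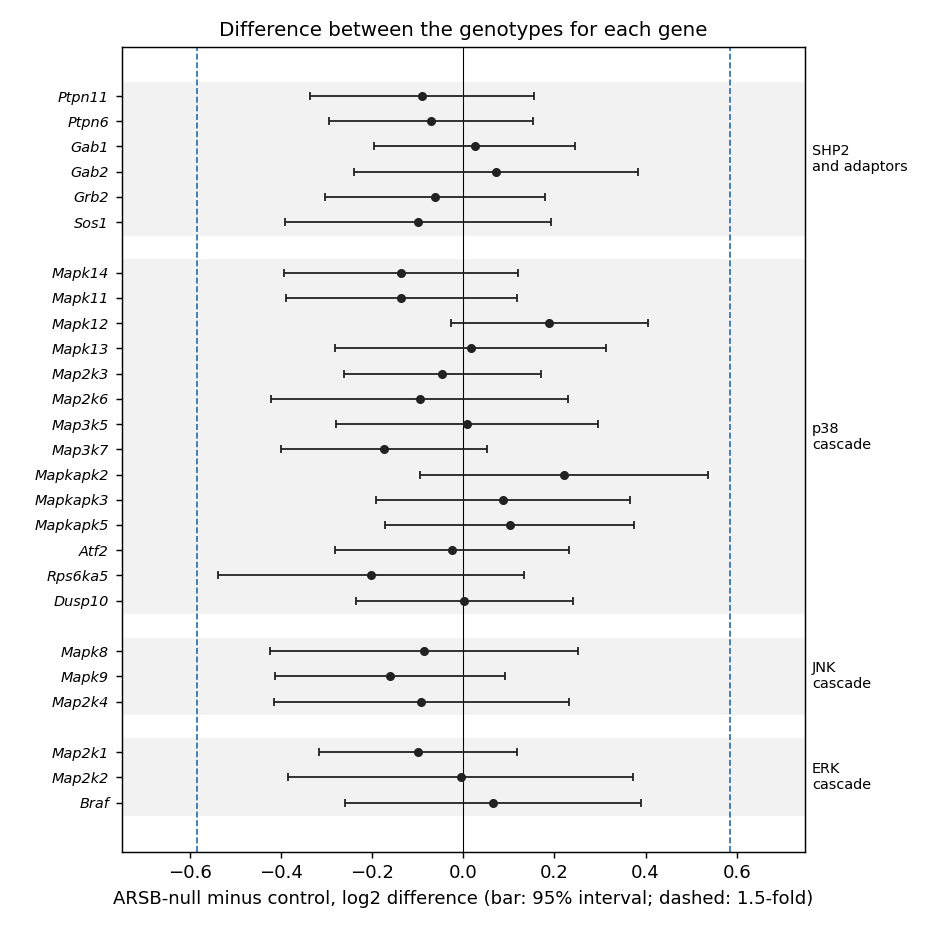
Log2 difference of the mean signal, ARSB-null minus control, for the 26 measured genes in cascade order, with points for the estimates and bars for the 95% intervals of the limma fit over 3 arrays per genotype. Every bar crosses 0 and ends inside the dashed lines at 1.5-fold, and the estimates lie between -0.20 and 0.22.

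In 3 of the 26 genes (11.5%) the 2 genotypes did not overlap, beside 11.9% of all probe sets. These were Mapk12, with higher values in the ARSB-null livers, and Map3k7 and Map2k1, with lower values. The share in this group was thus close to that over the whole array. An exact permutation test of 3 arrays against 3 cannot go below p = 0.1, the value each of the 3 genes has.

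Ptpn11 itself measured 9.53, 9.64 and 9.51 in ARSB-null and 9.57, 9.60 and 9.78 in control livers. The ranges overlapped, and only the control numbered 6 was above all ARSB-null values. The means were 9.56 ± 0.07 and 9.65 ± 0.11 (SD, n = 3 each), a log2 difference of -0.09 (SE 0.10, 95% interval -0.34 to 0.16, limma adjusted p = 0.989). Within the replicate numbers 4, 5 and 6 the difference was -0.04, 0.03 and -0.26, so its sign was not shared. As a ratio of ARSB-null to control, this limma interval ran from 0.792 to 1.11. A fall of SHP2 mRNA to 0.792 of control thus lay within the 95% bounds, and a rise of more than 1.11-fold lay outside them.

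Ptpn6 encodes SHP1, a related phosphatase best known from blood cells. It measured 8.17, 8.30 and 8.31 in ARSB-null and 8.36, 8.31 and 8.32 in control livers. The values overlapped by a narrow margin, with the ARSB-null liver numbered 4 the lowest. The log2 difference was -0.07 (95% interval -0.29 to 0.15, limma adjusted p = 0.993). Because SHP1 is best known from blood cells, though not limited to them, markers of those cells were read beside it. Of 11 macrophage markers, 2 were higher (Cd68 and C1qa) and 2 lower (Adgre1 and Csf1r) in the ARSB-null livers at an unadjusted p of 0.05, and their summed linear signal spanned 10200 to 11500 in the ARSB-null and 9010 to 12000 in the control livers. The summed signal of 9 lymphocyte markers spanned 742 to 808 and 744 to 899, with Cd79a and Ms4a1 lower. That of 7 neutrophil and monocyte markers spanned 373 to 389 and 374 to 456, with Ngp lower. All of these sums overlapped between the genotypes, none of the markers was at 0, and their part in the Ptpn6 value was not tested.

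The 4 adaptors measured link receptors to SHP2 and Ras, and the differences were small in both directions. Gab1 and Gab2 encode docking proteins that bind SHP2 once phosphorylated. Gab1 measured 8.64, 8.54 and 8.65 in the ARSB-null and 8.64, 8.57 and 8.55 in the control livers, a log2 difference of 0.03 (95% interval -0.20 to 0.25). Gab2 had 7.96, 7.76 and 7.93 against 8.02, 7.77 and 7.64, a difference of 0.07 (-0.24 to 0.38). In Gab2 the array numbered 4 was the highest of each genotype. Grb2, the adaptor that carries SOS proteins to receptors, differed by -0.06 (-0.30 to 0.18). Sos1, the exchange factor that loads Ras with GTP, differed by -0.10 (-0.39 to 0.19). All 6 genes of this arm had an adjusted p of 0.989 or above.

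The promoter windows of Ptpn11, Mapk12 and Mapk11 are printed because Ptpn11 is the gene the group is built around, Mapk12 had the smallest p of the group, and Mapk11 is its chromosomal neighbour with a difference of opposite sign. The windows come from RefSeq on GRCm38.p6 and run from 250 bases before the start to 50 bases from it on, 5′ to 3′ on the strand of the gene. Capitals mark a cyclic AMP response element TGACGTCA, the motif of CREB and ATF2, or an E-box CACGTG, bound by basic helix-loop-helix factors such as MITF.
Ptpn11, chr5:121191348-121191647, minus strand: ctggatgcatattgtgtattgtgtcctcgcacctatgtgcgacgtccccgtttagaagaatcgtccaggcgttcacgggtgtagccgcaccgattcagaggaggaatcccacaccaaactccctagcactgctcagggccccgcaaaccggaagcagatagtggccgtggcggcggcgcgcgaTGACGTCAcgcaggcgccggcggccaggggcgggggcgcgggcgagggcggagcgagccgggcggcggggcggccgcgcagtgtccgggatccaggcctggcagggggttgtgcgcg
Mapk12, chr15:89140654-89140953, minus strand: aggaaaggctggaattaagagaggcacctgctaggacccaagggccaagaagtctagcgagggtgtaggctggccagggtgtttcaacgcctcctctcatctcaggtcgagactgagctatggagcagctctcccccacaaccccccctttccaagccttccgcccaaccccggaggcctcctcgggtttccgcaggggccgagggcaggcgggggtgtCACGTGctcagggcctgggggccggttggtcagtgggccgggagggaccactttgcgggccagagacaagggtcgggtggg
Mapk11, chr15:89149557-89149856, minus strand: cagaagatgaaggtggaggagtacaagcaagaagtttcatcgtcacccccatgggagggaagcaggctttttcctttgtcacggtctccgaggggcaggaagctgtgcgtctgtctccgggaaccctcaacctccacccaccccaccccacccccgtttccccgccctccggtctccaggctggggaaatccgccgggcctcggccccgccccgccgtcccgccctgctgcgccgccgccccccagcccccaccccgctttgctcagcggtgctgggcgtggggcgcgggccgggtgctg
Both motifs are palindromes, so a search of either strand finds the same places, and they do not overlap each other. The response element began 67 bases before the start of Ptpn11, and the E-box 31 bases before that of Mapk12. The Mapk11 window held neither. A window was listed for 25 of the 26 genes, with 33 windows in all. The response element was in 2 of the 33 windows (6.06%), those of Ptpn11 and Braf, and in 1.79% of all 32851 mouse windows. The E-box was also in 2 of the 33 (6.06%), those of Mapk12 and Mapkapk3, and in 7.15% of all windows. These matches describe the letters and do not show that a factor binds there.

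The p38 cascade had 14 genes measured of 15, of which 7 had higher and 7 lower means in the ARSB-null livers. At its top, Map3k7 encodes TAK1, the MAP3K that relays signals from TGF-beta, interleukin-1 and Toll-like receptors to p38 and JNK. Map3k7 measured 9.52, 9.69 and 9.58 in ARSB-null and 9.76, 9.77 and 9.79 in control livers. Every ARSB-null value was below every control value, and the controls were tightly grouped. The means were 9.60 ± 0.09 and 9.77 ± 0.01 (SD, n = 3 each), 1.13-fold lower in the ARSB-null livers with an interval of -0.40 to 0.05 on the log2 scale (SE 0.10, limma adjusted p = 0.918). Map3k5 encodes ASK1, the MAP3K responding to oxidative stress. It differed by 0.01 (-0.28 to 0.30), and its lowest values were those of the arrays numbered 4 in both genotypes.

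The MAP2K tier gave overlapping groups. Map2k3 and Map2k6 encode kinases that phosphorylate p38. Map2k3 measured 9.78, 9.72 and 9.72 in the ARSB-null and 9.83, 9.80 and 9.73 in the control livers, a log2 difference of -0.05 (-0.26 to 0.17). Map2k6 had 6.96, 6.74 and 7.21 against 7.14, 7.05 and 7.01, a difference of -0.10 (-0.42 to 0.23). The ARSB-null livers held both the lowest and the highest value of Map2k6.

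The 4 isoforms of p38 did not share a direction. Mapk14 encodes p38 alpha, the widely expressed isoform. It measured 10.02, 10.11 and 10.15 in ARSB-null and 10.38, 10.14 and 10.17 in control livers, a log2 difference of -0.14 (95% interval -0.39 to 0.12, limma adjusted p = 0.976). The control numbered 4 was the highest, and the other control values were close to the upper ARSB-null values. Mapk11, p38 beta, measured 6.60, 6.67 and 6.66 against 6.87, 6.84 and 6.62, also a difference of -0.14 (-0.39 to 0.12). The controls numbered 4 and 5 were above all ARSB-null values, and the control numbered 6 was within their range.

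Mapk12, p38 gamma, had the smallest p of the whole group. It measured 7.15, 7.21 and 7.10 in ARSB-null and 6.94, 6.99 and 6.95 in control livers. The groups were separate, and the gap between them exceeded the spread within the control group but was about equal to that within the ARSB-null group. The means were 7.15 ± 0.05 and 6.96 ± 0.03 (SD, n = 3 each), 1.14-fold higher in the ARSB-null livers with a 95% interval of 0.982 to 1.32 (limma, unadjusted p = 0.0764, adjusted p = 0.875). Mapk12 and Mapk11 are next to each other among protein-coding genes on chromosome 15, and their differences had opposite signs. Mapk13, p38 delta, measured 6.57, 6.27 and 6.42 against 6.57, 6.30 and 6.34, a difference of 0.02 (-0.28 to 0.31). In Mapk13 both arrays numbered 4 were above the other 4. Mapk13 is the neighbour of Mapk14 on chromosome 17.

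Downstream of p38, the MAPKAP kinases were higher on average and MSK1 lower. Mapkapk2 encodes MK2, the kinase through which p38 stabilizes cytokine mRNAs. It measured 9.98, 10.18 and 10.13 in ARSB-null and 9.64, 9.99 and 10.00 in control livers. The groups overlapped only because the ARSB-null value numbered 4 was below the controls numbered 5 and 6. The mean was 1.17-fold higher in the ARSB-null livers, the largest positive estimate of the 26, at 0.22 on the log2 scale (-0.10 to 0.54, limma adjusted p = 0.952). Within the numbers 4, 5 and 6 the difference was 0.34, 0.19 and 0.13. Mapkapk3 differed by 0.09 (-0.19 to 0.37) and Mapkapk5 by 0.10 (-0.17 to 0.38), and both overlapped between the genotypes.

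Rps6ka5 encodes MSK1, the nuclear kinase of p38 and ERK that phosphorylates CREB and histone H3. It measured 5.99, 6.25 and 6.06 in ARSB-null and 6.06, 6.36 and 6.48 in control livers. The groups overlapped through the control numbered 4, which was as low as the ARSB-null numbered 6. The difference of -0.20 was the largest negative estimate (-0.54 to 0.13, limma adjusted p = 0.966). Without that control array it was -0.32 and past an unadjusted p of 0.05, but not past an adjusted one. Atf2, a transcription factor phosphorylated by p38 and JNK, differed by -0.03 (-0.28 to 0.23). Dusp10, a phosphatase of p38 and JNK, spanned 7.84 to 8.01 in ARSB-null and 7.90 to 8.01 in control livers, with a difference of 0.00 (-0.23 to 0.24).

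**Figure D2:**
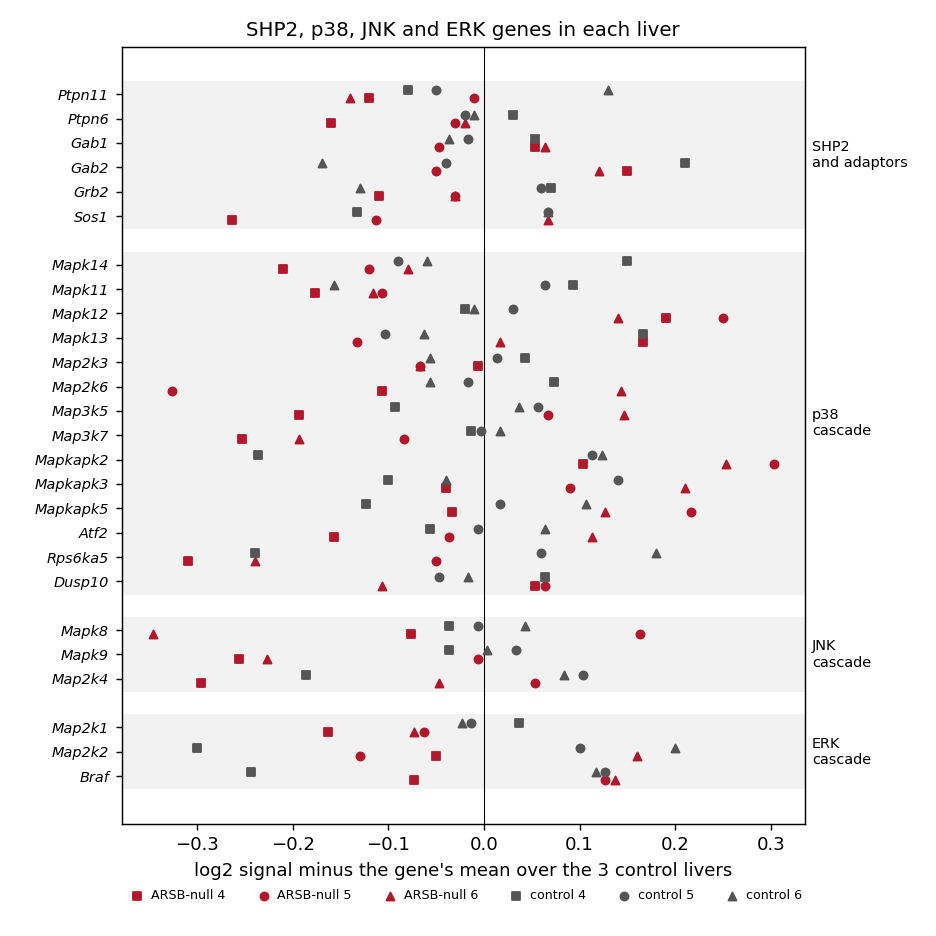
Log2 signal of each of the 26 measured genes in each liver, shown as the difference from the gene's mean over the 3 control livers, with red for ARSB-null, grey for control livers and the marker shape giving the replicate number. Mapk12, Map3k7 and Map2k1 are the 3 genes in which the genotypes do not overlap.

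All 3 genes measured of the JNK cascade had lower means in the ARSB-null livers, and none was past either threshold. Mapk8 encodes JNK1, which acts in stress signalling and insulin resistance of the liver. It measured 8.90, 9.14 and 8.63 in ARSB-null and 8.94, 8.97 and 9.02 in control livers, a log2 difference of -0.09 (-0.43 to 0.25). The ARSB-null values enclosed all control values. Mapk9, JNK2, measured 9.71, 9.96 and 9.74 against 9.93, 10.00 and 9.97, a difference of -0.16 (-0.41 to 0.09, limma adjusted p = 0.959). In Mapk9 only the ARSB-null liver numbered 5 was within the control range. Map2k4, a MAP2K of JNK beside Map2k7, which was not analysed, differed by -0.09 (-0.42 to 0.23). Its differences were -0.11, -0.05 and -0.12 within the numbers 4, 5 and 6. The difference of Mapk8 was 0.04 without the ARSB-null array numbered 6, and that of Map2k4 0.01 without the ARSB-null array numbered 4.

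In the ERK cascade, Map2k1, which encodes MEK1, measured 9.08, 9.18 and 9.17 in ARSB-null and 9.28, 9.23 and 9.22 in control livers. The groups did not overlap, but the gap between them was narrow. The means were 9.15 ± 0.05 and 9.24 ± 0.03 (SD, n = 3 each), a log2 difference of -0.10 (-0.32 to 0.12, limma adjusted p = 0.985). Map2k2, MEK2, had 9.46, 9.38 and 9.67 against 9.21, 9.61 and 9.71, a difference of -0.01 (-0.38 to 0.37). The control livers held both its lowest and its highest value. Braf, a MAP3K of this cascade, differed by 0.06 (-0.26 to 0.39), and its arrays numbered 4 were the lowest in both genotypes.

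The arrays were also compared by replicate number. Both arrays numbered 4 were below, or both above, the other 4 arrays in 9 of the 26 genes (34.6%), beside 33.4% of all probe sets. They were below in Sos1, Map3k5, Mapkapk2, Mapkapk5, Atf2, Map2k4 and Braf, and above in Gab2 and Mapk13. The ARSB-null array numbered 4 held the lowest value of 11 of the 26 genes (42.3%) and the highest of 0, whereas over all probe sets it was the lowest in 19.1% and the highest in 16.3%. With both arrays numbered 4 left out, 0 of the 26 genes were past the unadjusted threshold, and 11 (42.3%) did not overlap between 2 and 2 arrays, beside 40.9% of all probe sets. The log2 differences then lay between -0.27 for Rps6ka5 and 0.18 for Mapk12, with -0.11 for Ptpn11, -0.14 for Map3k7, -0.03 for Mapk14, -0.05 for Map2k1 and 0.14 for Gab2, each of the same sign as with all 6 arrays. The sign changed in 2 genes, Grb2 at 0.00 and Atf2 at 0.01. Within all 3 replicate numbers, 12 of the 26 genes (46.2%) had a difference of the same sign, beside 32.2% of all probe sets. Mapk12, Mapkapk2, Mapkapk5 and Braf were higher in the ARSB-null liver of each number. Ptpn6, Mapk14, Map2k3, Map3k7, Rps6ka5, Mapk9, Map2k4 and Map2k1 were lower in each.

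A further 125 genes of the same pathways, out of 135 listed, were read in 6 lists. None was past an adjusted p of 0.05, and 11 (8.80%) were past an unadjusted p of 0.05, beside 5.94% of all probe sets, with 8 higher and 3 lower in the ARSB-null livers. In 16 of the 125 (12.8%) the genotypes did not overlap, beside 11.9% of all probe sets. The list of MAP kinase phosphatases had 2 of 18 genes past the unadjusted threshold, both higher, and a median log2 difference of -0.04. The list of receptors and docking proteins upstream of SHP2 had 2 of 28 higher and 1 lower, with a median of 0.077. The list of SHP1 partners in blood cells had 1 of 12 higher and 2 lower, with a median of -0.061. The JNK list had 2 of 19 higher and a median of 0.07, the p38 list 1 of 23 higher and a median of -0.054, and the ERK list 0 of 25 and a median of 0.023.

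**Figure D3:**
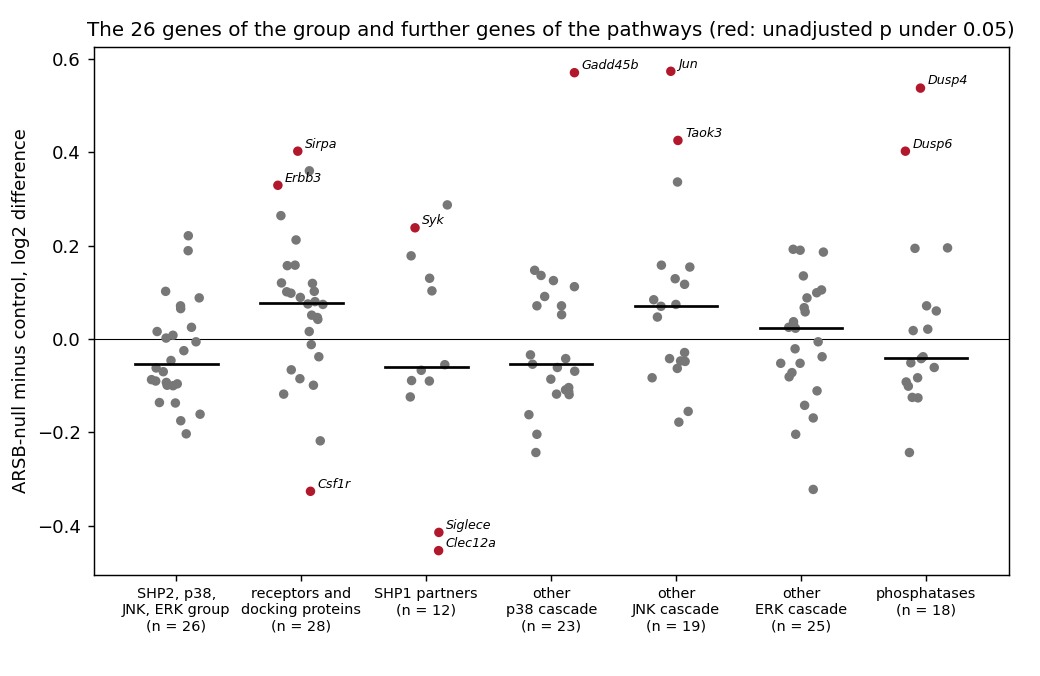
Log2 difference, ARSB-null minus control, of each of the 26 genes of the group (leftmost) and of each gene in the 6 lists of further pathway genes, with 1 point per gene, lines at the medians and red for an unadjusted p under 0.05. The medians of the lists of further genes lie between -0.061 and 0.077, and no gene is past an adjusted p of 0.05.

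Among the phosphatases, Dusp6, the cytoplasmic phosphatase of ERK whose transcription rises with ERK activity, had the smallest p of the 125. Dusp6 measured 9.87, 9.92 and 10.01 in ARSB-null and 9.50, 9.51 and 9.59 in control livers. Every ARSB-null value was above every control value, by more than the spread within either group. The mean was 1.32-fold higher, at 0.40 on the log2 scale (95% interval 0.18 to 0.63, limma, unadjusted p = 0.00399, adjusted p = 0.501). Other transcripts induced through ERK, taken from the ERK list only, had means in both directions. Egr1 (-0.32), Etv5 (-0.17), Spry2 (-0.11) and Etv4 (-0.01) had lower means. Spry4 (0.02), Fos (0.07), Spry1 (0.10) and Myc (0.19) had higher ones. The Egr1 controls numbered 4, 5 and 6 measured 9.03, 7.44 and 7.11, so its lower mean came from the control numbered 4. Within these numbers the difference was -1.54, 0 and 0.57 for Egr1 and -0.51, 0.34 and 0.16 for Etv4. Spry2 was lower, and Spry1 and Myc higher, within each number. None of these genes of the ERK list was past the unadjusted threshold, and the activity of ERK was not tested. Dusp4, a nuclear MAP kinase phosphatase, measured 6.94, 6.65 and 6.97 against 6.68, 6.06 and 6.21. The control numbered 4 was within the ARSB-null range, and the difference was 0.54 (0.10 to 0.97, limma adjusted p = 0.749). Dusp7, another phosphatase of ERK, differed by -0.24 (limma adjusted p = 0.907).

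Upstream of SHP2, Sirpa encodes an inhibitory receptor of myeloid cells that binds SHP1 and SHP2. It measured 9.55, 9.48 and 9.57 in ARSB-null and 9.24, 9.15 and 8.99 in control livers. The groups were separate, with a difference of 0.40 (0.15 to 0.65, limma, unadjusted p = 0.00658, adjusted p = 0.568). Erbb3, a receptor that signals as a partner of other ERBB proteins, had 11.46, 11.57 and 11.39 against 11.11, 11.18 and 11.15. Its groups were separate as well, with a difference of 0.33 (0.10 to 0.56, limma adjusted p = 0.659). Csf1r, the receptor for the macrophage growth factor CSF1, which is also among the macrophage markers above, differed by -0.33 (-0.65 to -0.01, limma adjusted p = 0.835). Among the SHP1 partners, the inhibitory receptors Siglece and Clec12a differed by -0.41 (limma adjusted p = 0.766) and -0.45 (0.799), and the tyrosine kinase Syk by 0.24 (0.831).

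In the JNK list, Jun, the AP-1 subunit phosphorylated by JNK, measured 8.37, 9.04 and 8.90 in the ARSB-null and 7.92, 8.30 and 8.38 in the control livers. The ARSB-null value numbered 4 was just below the highest control, and the difference was positive within each number. The log2 difference was 0.57 (0.08 to 1.07, limma adjusted p = 0.787). Taok3, a kinase of the STE20 family, had 8.79, 9.20 and 9.12 against 8.44, 8.72 and 8.66, without overlap, and an adjusted p of 0.745 in limma. Jund, a further AP-1 subunit, differed by 0.34 (limma adjusted p = 0.939). In the p38 list, Gadd45b, an inducible activator of the MAP3K MEKK4, measured 7.49, 7.14 and 7.96 against 6.73, 7.01 and 7.13. These groups touched without overlap, at 7.14 and 7.13, and the difference was 0.57 (0.05 to 1.09, limma adjusted p = 0.802). Mef2c, a transcription factor phosphorylated by p38, differed by -0.24, and Mknk1, which phosphorylates the translation factor eIF4E, by -0.16.

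In the ERK list, Ksr2, a scaffold that holds RAF and MEK together, differed by -0.20 (limma adjusted p = 0.879). Spred1 and Spred2, inhibitors of Ras signalling, both differed by 0.19, with adjusted p of 0.931 and 0.949 in limma. None of these 3 was past the unadjusted threshold. With both arrays numbered 4 left out, the difference was 0.41 for Dusp6, 0.45 for Sirpa and 0.63 for Jun, and their adjusted p stayed above 0.05.

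**Figure D4:**
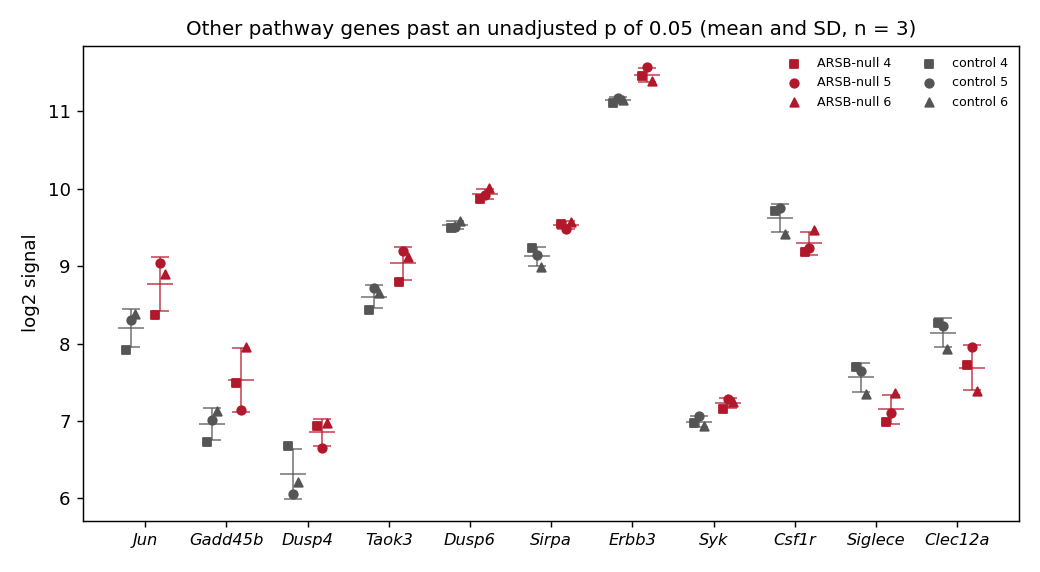
Log2 signal in each liver of the 11 further pathway genes past an unadjusted p of 0.05, with 1 point per array, red for ARSB-null and grey for control livers, and lines for the mean and SD of 3 arrays. In Dusp6, Sirpa, Erbb3, Taok3, Gadd45b and Syk the 3 ARSB-null livers lie above the 3 controls, in Gadd45b only just. No gene shown has an adjusted p below 0.501.

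Markers of other cell types were read beside these lists. The summed linear signal of 8 endothelial markers spanned 7960 to 8770 in the ARSB-null and 7800 to 8440 in the control livers, with Lyve1 lower at an unadjusted p of 0.05. That of 8 stellate cell markers spanned 6630 to 7700 and 6670 to 7030. The sums of 5 cholangiocyte markers, at 641 to 699 against 746 to 811, and of 4 erythroid markers, at 1300 to 1640 against 2470 to 2890, were lower in the ARSB-null livers without overlap. At an unadjusted p of 0.05, 1 cholangiocyte marker (Sox9) and 3 erythroid markers (Alas2, Slc4a1 and Epb42) were lower. A linear sum is weighted to its brightest genes, here Sox9 (means 8.13 against 8.48) and Alas2 (10.24 against 11.04). Of the other cholangiocyte markers, Krt7 and Cldn4 each differed by -0.12, Krt19 by 0.02 and Epcam by 0.08. Of the erythroid markers, Slc4a1 differed by -1.56, Alas2 by -0.81, Epb42 by -0.41 and Klf1 by 0.01. In Slc4a1 and Alas2 the genotypes did not overlap, and the lowest adjusted p of this list was 0.224 (limma). The sums therefore do not show that all markers of either cell type were lower. No marker was at 0, and the part of these cells in the values of the pathway genes was not tested.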

How the data were processed

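RNA from the liver of 3 ARSB-null and 3 control mice was hybridized by the authors to whole-transcript mouse gene arrays, 1 per liver. Each array holds a deposited log2 signal for every probe set, after quantile normalization and summarization by the authors. RMA and Partek appear in the submitters' processing notes, with versions not given in the sources used here. Quantile normalization removes a shift shared by most genes. There are no detection calls, and the number of arrays limits the precision.

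Gene symbols came from the platform annotation: of 35556 probe sets, 21789 had 1 symbol, 1621 several and 12146 were not listed. Symbols were checked against RefSeq (GRCm38.p6), and 0 changed. The identifiers match GEO's annotation of the first-generation array, whereas the paper names the second. The array's genome build is likewise not given. Whether probes of related genes cross-hybridize was not tested.

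All 35556 probe sets were fitted with limma 3.58.1 (R 4.3.3; lmFit, eBayes, two-sided, Benjamini-Hochberg, adjusted p under 0.05), and intervals are at 95%. The labels describe separate animals. Motifs were searched in RefSeq promoter windows of 300 bases. The script was tested on simulated data.

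The members and lists were chosen with earlier results of these data known. All measured members are named. Of each list of further pathway genes, those past the adjusted threshold are named, filled up to 3 by the smallest p. Further genes of the ERK list are named beside Dusp6 for comparison. Marker genes are named where past an unadjusted p of 0.05, and all measured cholangiocyte and erythroid markers are named.

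The mice of both genotypes carry the numbers 4, 5 and 6. The deviations from the group means of same-numbered arrays correlated across probe sets at 0.396, 0.159 and 0.193, all above 0.1. An unmatched pair, ARSB-null 6 and control 5, reached 0.22, so the pairing of the numbers 5 and 6 is uncertain, and the labels do not say what a number shares. The reported fit, its SEs and its intervals have no block, and a fit with the number as a block was an alternative. Since deviations within a group sum to 0, the other 2 correlations rise if only the arrays numbered 4 are alike. Further alternatives were the study's one-way analysis of variance, other sets of features, normalizations, weights and priors, and arrays left out.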

Additional observations from a re-analysis of the deposited data

How the results depend on the processing

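The count of 0 genes of the group past the adjusted threshold held under each alternative run, including a threshold of 0.1 and the fit with the replicate block, in which the lowest adjusted p was 0.604 and the count past the unadjusted threshold 0. The replicate block changed no call of Arsb, Gpnmb, a member or a further pathway gene named by its p. The count past an unadjusted p of 0.05 was 2 by the analysis of variance (Mapk12 and Map3k7; 7.69%, beside 6.56% of all probe sets), 2 with array weights (Mapk12 and Rps6ka5; 7.69%, beside 10.8%) and 0 to 1 with single arrays left out (1, Rps6ka5, without the control numbered 4). The count without overlap, 3 as deposited, was 6 after subtraction of array medians (23.1%, beside 12.0% of all probe sets), 5 after repeated quantile normalization (19.2%, beside 12.6%), 6 to 8 with single arrays left out (23.1% to 30.8%, beside 18.5% to 28.1%) and 11 with both arrays numbered 4 left out (42.3%, beside 40.9%). The median difference stayed between -0.086 and -0.018, and the 95% intervals of the group reached -0.61 and 0.59 by the analysis of variance, -0.62 after either other normalization and -0.67 and 0.67 with single arrays left out. Of 732 values of single genes, 698 kept both their direction and their side of the threshold, and 32, all of members near 0 that no fit called, changed sign. After subtraction of array medians these were Gab1 (-0.01), Mapk13 (-0.02), Map3k5 (-0.02) and Dusp10 (-0.03), after repeated quantile normalization Mapk13 (-0.02), Dusp10 (0.00) and Map2k2 (0.02), with array weights Grb2 (0.01) and Braf (0.00), and with both arrays numbered 4 left out Grb2 (0.00) and Atf2 (0.01). With single arrays left out the difference crossed 0 in Gab2 (-0.02 to 0.18), Mapk13 (-0.06 to 0.10), Map2k6 (-0.21 to 0.02), Map3k5 (-0.06 to 0.11), Atf2 (-0.10 to 0.04), Dusp10 (-0.03 to 0.06), Mapk8 (-0.21 to 0.04), Map2k4 (-0.18 to 0.01), Map2k2 (-0.16 to 0.09) and Braf (-0.06 to 0.13). Arsb was at -2.67 with an adjusted p of 0.0534 with both arrays numbered 4 left out, and Gpnmb at 3.25 with 0.0957 by the analysis of variance. Over all probe sets the count called was 7, compared with 4 with the replicate block, 2 by the analysis of variance, 12 in the brighter part of the probe sets (24 of the 26 genes), 28 with array weights (3830 past the unadjusted threshold, compared with 2112), 4 to 7 with single arrays left out, 1 with both arrays numbered 4 left out and 60 among probe sets with 1 symbol, and 0 of these were in the group. With 3 arrays per genotype, differences within the printed intervals could not be resolved.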
